A study of Mus musculus with 12 samples.

Results

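The interleukin-4 (IL-4) receptor pathway was followed through 10 genes in mouse osteoclast cultures. They are the receptor chains Il4ra and Il13ra1, the signal transducer Stat6, and 7 target or feedback genes, Arg1, Chil3, Retnla, Mgl2, Pdcd1lg2, Cish and Egr2. Members were taken by gene symbol from a count table of 47643 genes, where each symbol had 1 row, and 8 of the 10 passed the filter on low counts that left 13681 genes for testing. Retnla and Pdcd1lg2 fell below it. Mgl2 passed it through OCsEoS, the group in which it was high, and without OCsEoS it was below the filter.

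Bulk RNA-seq. was available for 12 libraries in 3 groups of 4, and the study's methods call the libraries of a group biological replicates. The starting cells of every culture were bone marrow-derived monocytes (BMMs) from WT mice of the BALB/c strain. They received M-CSF and RANKL, the cytokines that drive monocytes into osteoclasts, and RNA was taken on day 3. OCsCtr received no stimulus. OCsEo received sorted eosinophils, 2 for each BMM, from day 0 for 48 h, and OCsEoS received eosinophil supernatant at a 1:2 dilution for the same time. Stimuli were then washed away on day 2 and fresh differentiation medium was given. The donors of the eosinophils, taken from their blood and marrow, were IL-5tg/4get mice, which overexpress IL-5 and carry a fluorescent reporter at the Il4 gene. The age of the donor mice of these libraries is not given in the sources used here. The comparison addresses whether cells that meet eosinophils, or only what eosinophils release, carry the transcripts known from IL-4 and IL-13 signaling. It does not address what inhibits osteoclast formation. The study reports that eosinophils and their supernatant still inhibited osteoclasts from BMMs of Il4ra or Stat6 knockout mice. Total counts ran from 27837530 to 40327869 per library, so that 3 counts were worth 0.0769 to 0.107 CPM (a count's share of the library, scaled by TMM). All values are bulk averages, in which a change in the share of a cell type and a change in RNA per cell cannot be told apart.

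As background, IL-4 binds IL-4Rα, which pairs with the common gamma chain in the type I receptor or with IL-13Rα1 in the type II receptor, and only the type II receptor also takes IL-13. Janus kinases on these chains phosphorylate STAT6, which forms dimers, enters the nucleus and binds palindromic DNA. In mouse macrophages this program is called alternative activation and is known by Arg1, Chil3, Retnla and Mgl2. In osteoclast precursors, IL-4 is known to block differentiation.

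Promoter sequences are shown for 4 of the target genes because the count data and the DNA letters can be read side by side. STAT6 is known for TTCNNNNGAA, and other STAT factors for TTCNNNGAA. Each motif reads the same on both strands, so 1 search covers both, and no gene here held a match of one motif that overlapped a match of the other. RefSeq promoters (build GRCm38.p6, 250 bases before to 50 bases after the start) were found for 9 of the 10 genes, all but Arg1. These 9 genes have 13 promoters in the table. Among 32851 mouse promoters of this length, 6.95% held TTCNNNNGAA and 8.3% held TTCNNNGAA, and counted by gene 8.01% and 9.55% of 27025 genes held one in any of their promoters. Of the 9 genes, Retnla and Pdcd1lg2 held the first motif, Chil3 and Cish held the second, and Il4ra, Il13ra1, Stat6, Mgl2 and Egr2 held neither in this window. In the lines that follow, capitals mark a match, and bases run 5′ to 3′ on the strand of the gene. Retnla lies at chr16:48842359-48842658 on the plus strand with a match from 145 to 136 bases before the start, Chil3 at chr3:106167515-106167814 on the minus strand with a match from 172 to 164 bases before it, and Cish at chr9:107296409-107296708 on the plus strand with matches at bases 1 to 9 and 12 to 20. Mgl2, which had the largest fitted change of the 8 tested genes in OCsEoS, lies at chr11:70130107-70130406 on the plus strand and is shown as the case without a match.
Retnla: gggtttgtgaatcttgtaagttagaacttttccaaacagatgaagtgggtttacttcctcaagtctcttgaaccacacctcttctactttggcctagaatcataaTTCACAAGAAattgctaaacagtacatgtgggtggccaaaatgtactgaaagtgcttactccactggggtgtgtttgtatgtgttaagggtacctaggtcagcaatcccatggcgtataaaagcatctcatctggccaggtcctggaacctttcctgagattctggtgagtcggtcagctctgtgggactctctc
Chil3: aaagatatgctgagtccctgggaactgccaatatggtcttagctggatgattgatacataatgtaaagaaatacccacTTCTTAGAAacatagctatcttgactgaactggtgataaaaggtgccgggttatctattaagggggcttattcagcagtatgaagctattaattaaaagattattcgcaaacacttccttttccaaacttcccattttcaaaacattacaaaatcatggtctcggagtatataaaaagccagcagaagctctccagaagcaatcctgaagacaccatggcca
Cish: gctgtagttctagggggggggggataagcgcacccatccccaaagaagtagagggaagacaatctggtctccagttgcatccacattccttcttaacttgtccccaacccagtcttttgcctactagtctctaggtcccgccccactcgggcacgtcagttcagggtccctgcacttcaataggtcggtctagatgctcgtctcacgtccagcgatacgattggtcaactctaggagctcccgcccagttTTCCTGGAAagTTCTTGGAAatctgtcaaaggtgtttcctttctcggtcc
Mgl2: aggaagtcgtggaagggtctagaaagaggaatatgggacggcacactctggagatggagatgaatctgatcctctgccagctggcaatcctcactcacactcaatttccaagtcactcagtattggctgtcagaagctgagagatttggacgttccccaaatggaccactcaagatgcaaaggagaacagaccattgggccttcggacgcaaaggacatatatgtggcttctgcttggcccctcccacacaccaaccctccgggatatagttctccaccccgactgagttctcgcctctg
A match is a description of the letters and not a bound site, and a window without one says nothing about the factor.

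Among the 8 genes tested, Arg1 was the only one called against OCsCtr in both stimulated groups, 2.95-fold higher in OCsEo and 10.3-fold higher in OCsEoS. Mgl2 was called higher and Il13ra1 lower in OCsEoS. Calls came from edgeR's quasi-likelihood test over all 13681 genes and needed a log2 fold change beyond 0.5 in either direction together with an adjusted p below 0.05. In OCsEo vs OCsCtr, 1 of the 8 was called, against 5.88% of all genes tested (3.27% called higher). For OCsEoS vs OCsCtr the count was 3 of 8, against 7.73% of all genes, with 2 higher, against 3.63%, and 1 lower, against 4.11%. Since Mgl2 entered the 8 through its OCsEoS counts, the share of the 8 is not read against that of all genes. Without the filter, with all 10 genes among 20203 tested, edgeR called 1 of the 10 in OCsEo, against 4.27% of genes, and 3 in OCsEoS, against 5.43%. Between OCsEoS and OCsEo 0 of 8 was called, against 0.380% of all genes. An unadjusted p under 0.05 was reached there by 3 of the 8, against 11.1% of all genes, and DESeq2 called 1, Arg1, against 0.566% of 14317 genes. Without the filter edgeR also called Arg1 there (adjusted p = 0.00785), against 0.495% of 20203 genes. Both stimulated groups share the OCsCtr libraries, so their changes are set side by side and are not independent of each other.

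**Figure D1:**
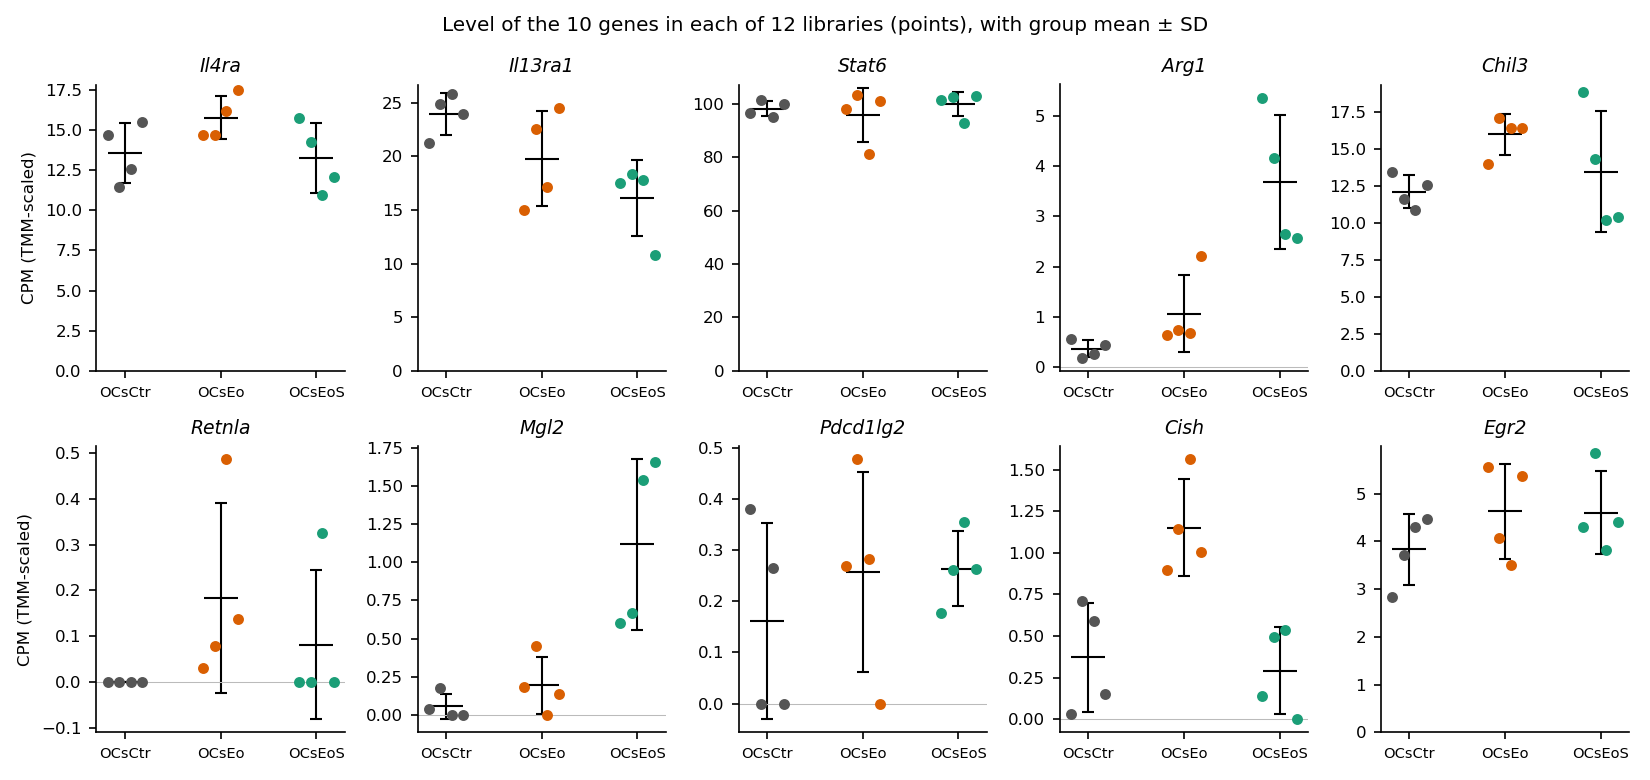
CPM (vertical axis, TMM-scaled, linear, a scale of its own in each panel) of the 10 genes in each of the 12 libraries, where points are libraries, horizontal bars are group means and error bars are SD (n = 4). Arg1 and Mgl2 are highest in the 4 OCsEoS libraries, Cish in the 4 OCsEo libraries, and Stat6 sits between 81.2 and 103 CPM throughout.

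To set the genes beside each other, levels were also expressed per length as TPM, the share of transcripts. Averaged over 12 libraries, Stat6 was the most abundant of the 10 at 43.1 TPM ± 3.70 (SD, n = 12), above 80.8% of the genes tested. Chil3 followed at 16.4 TPM, Il13ra1 at 10.4, Il4ra at 4.56, Egr2 at 2.47 and Arg1 at 2.22. Mgl2, Retnla, Pdcd1lg2 and Cish averaged between 0.179 and 0.414 TPM, and their ranges over libraries overlapped. In OCsCtr the ranges of Chil3 (13.2 to 16.9 TPM) and Il13ra1 (11.7 to 13.8 TPM) also overlapped, whereas those of Il4ra (3.70 to 5.15 TPM) and Egr2 (1.71 to 2.63 TPM) did not. Arg1 had rank 6 in OCsCtr at 0.487 TPM ± 0.239 (SD, n = 4) and in OCsEo at 1.37 TPM ± 1.02. In OCsEoS it moved to rank 4 at 4.79 TPM ± 1.80, where its range of 3.32 to 7.01 TPM overlapped that of Il4ra, 3.37 to 5.05 TPM.

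At the top of the pathway stand the receptor and its transducer. Il4ra (ENSMUSG00000030748, chromosome 7, 125552120 to 125579474, plus strand, GRCm38) encodes the chain shared by both receptor types. It gave 14.7, 11.5, 12.6 and 15.5 CPM in OCsCtr replicates 1 to 4, 14.7, 14.7, 16.1 and 17.5 CPM in OCsEo, and 15.7, 14.3, 10.9 and 12.04 CPM in OCsEoS. The 3 groups overlapped. The log2 fold change was 0.22 (SE 0.14, 95% interval -0.06 to 0.50, adjusted p = 0.309) in OCsEo and -0.03 (95% interval -0.32 to 0.25, adjusted p = 0.901) in OCsEoS.

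Il13ra1 (ENSMUSG00000017057, chromosome X, 36112110 to 36171259, plus strand) encodes the second chain of the type II receptor. Its values were 21.2, 24.9, 25.8 and 23.9 CPM in OCsCtr, 15.03, 22.5, 17.1 and 24.5 CPM in OCsEo, and 17.5, 18.4, 17.8 and 10.8 CPM in OCsEoS. Every OCsEoS library lay under every OCsCtr library, and the OCsEo libraries spread over both. Groups that do not overlap, in the same direction, were seen for 13.1% of all genes in OCsEoS vs OCsCtr. Il13ra1 fell by 0.57 on the log2 scale in OCsEoS (SE 0.16, adjusted p = 0.0147), a mean of 16.1 ± 3.57 against 23.95 ± 1.98 CPM (SD, n = 4 each). In OCsEo the log2 fold change was -0.28 (SE 0.16, adjusted p = 0.273). The difference between the stimulated groups, -0.30 (SE 0.16, adjusted p = 0.525), did not pass the test, so the lower level in OCsEoS was not shown to be particular to the supernatant. Without OCsEoS replicate 4, the lowest library, the log2 fold change was -0.42 with an adjusted p of 0.0516, and Il13ra1 was no longer called.

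Stat6 (ENSMUSG00000002147, chromosome 10, 127642986 to 127660957, plus strand) gave 96.6, 101, 94.9 and 99.9 CPM in OCsCtr, 98.1, 103, 81.2 and 101 CPM in OCsEo, and 101, 102, 93.0 and 103 CPM in OCsEoS. All groups overlapped, and OCsEo replicate 3 was the lowest library. The log2 fold changes were -0.03 (95% interval -0.19 to 0.12, adjusted p = 0.809) in OCsEo and 0.02 (95% interval -0.13 to 0.18, adjusted p = 0.862) in OCsEoS. These intervals, the narrowest among the 8 genes, exclude a change of 0.5 in either direction. Stat6 overlaps Nab2 on the opposite strand, which held 183 to 402 counts per library and was not called either. The library kit does not mark strand, so reads from the overlap cannot be assigned.

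The ligands themselves were near the floor. Il4 had 2, 5, 8 and 8 counts in OCsCtr, 7, 42, 14 and 3 counts in OCsEo, and 8, 9, 13 and 6 counts in OCsEoS. Il13 had 0 counts in all OCsCtr and OCsEoS libraries and 0, 0, 10 and 4 counts in OCsEo. Neither passed the filter. The single high value of Il4, 42 counts, was in OCsEo replicate 2.

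Of the targets, Arg1 separated all 3 groups. Arg1 (ENSMUSG00000019987, chromosome 10, 24915208 to 24927470, minus strand) encodes arginase 1, which splits arginine into ornithine and urea. Counts were 16, 6, 9 and 14 in OCsCtr, 21, 28, 26 and 64 in OCsEo, and 151, 144, 89 and 88 in OCsEoS. In CPM these were 0.554, 0.178, 0.265 and 0.435 in OCsCtr, 0.627, 0.744, 0.666 and 2.22 in OCsEo, and 5.37, 4.17, 2.64 and 2.57 in OCsEoS. The highest OCsCtr library lay just under the lowest OCsEo library, and the highest OCsEo library, replicate 4, lay under the lowest OCsEoS library. Groups that do not overlap, in the same direction, were seen for 10.5% of all genes in OCsEo vs OCsCtr, 12.6% in OCsEoS vs OCsCtr and 2.41% in OCsEoS vs OCsEo.

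Against OCsCtr, Arg1 rose by a log2 fold change of 3.36 in OCsEoS (SE 0.50, adjusted p = 8.47e-05), from a mean of 0.358 ± 0.169 to 3.69 ± 1.34 CPM (SD, n = 4 each). In OCsEo the mean was 1.06 ± 0.770 CPM and the log2 fold change 1.56 (SE 0.50, adjusted p = 0.0341). The difference between OCsEoS and OCsEo was 1.80 (SE 0.45), with an adjusted p of 0.0827 by edgeR and 0.0115 by DESeq2 on the same 12 libraries. With OCsEo replicate 4 left out, this difference was 2.43 (adjusted p = 0.018), and the OCsEo vs OCsCtr change was 0.93 (adjusted p = 0.195), no longer called. The OCsEo call was also lost without OCsCtr replicate 2 (adjusted p = 0.101), 3 (0.0915) or 4 (0.0537), and in a fit of the 8 libraries alone (0.0838). The OCsEoS call held in each of the 12 fits that left out 1 library, with log2 fold changes of 3.13 to 3.63.

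Mgl2 (ENSMUSG00000040950, chromosome 11, 70130329 to 70137550, plus strand) encodes the lectin CD301b of macrophages and dendritic cells, which binds galactose-type sugars. Its counts were 1, 6, 0 and 0 in OCsCtr, 6, 17, 0 and 4 in OCsEo, and 17, 23, 52 and 57 in OCsEoS. In CPM every OCsEoS library was above every library of the other groups, although OCsEoS replicate 1 and OCsEo replicate 2 had 17 counts each and were set apart by depth, at 0.605 and 0.452 CPM. Such a separation was seen for 12.6% of all genes against OCsCtr and for 2.41% against OCsEo. OCsCtr and OCsEo overlapped. The log2 fold change in OCsEoS was 4.29 (SE 1.08, 95% interval 2.03 to 6.54, adjusted p = 0.00666). The filter on low counts passed Mgl2 only through this group, and in the fit without a filter the value was 4.28 (adjusted p = 0.000968). In OCsEo it was 1.77 (SE 1.09, adjusted p = 0.304), and between the stimulated groups it was 2.51 (SE 0.94, adjusted p = 0.292). The size rests on few control counts. Without OCsCtr replicate 2, which held 6 of the 7, it was 6.29 (adjusted p = 0.0041), and DESeq2 on 12 libraries gave no adjusted p for this gene. The neighboring and related Clec10a, 18646 bases away, was at 7.92 CPM in the OCsCtr group, 9.25 CPM in OCsEo and 9.004 CPM in OCsEoS and was not called (log2 fold changes 0.23 and 0.19, adjusted p = 0.425 and 0.5).

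Retnla (ENSMUSG00000061100, chromosome 16, 48842552 to 48844461, plus strand) encodes the secreted protein RELMα. It had 0 counts in the 4 OCsCtr libraries, 1, 3, 19 and 4 counts in OCsEo, and 0, 0, 11 and 0 counts in OCsEoS. All 4 OCsEo libraries were above OCsCtr, replicate 1 by a single count, under the floor of 3. Such a separation was seen for 10.5% of the genes past the filter, and no share was computed for genes below it. OCsEoS replicate 3 held every count of its group. With the OCsCtr group set to a floor of 3 counts, the pooled OCsEo counts gave a ratio of 8.33, or 3.43 without replicate 3. These ratios take no account of the spread between libraries and are not lower limits of the change. An exact two-sided permutation test of mean CPM gave p = 0.0286, the smallest that the 35 splits allow, for OCsEo and p = 1 for OCsEoS, before any adjustment. The permutation value for OCsEo follows from the lack of overlap with OCsCtr and adds nothing to it. In a fit without the filter (adjusted over 20203 genes), the adjusted p was 0.0883 in OCsEo and 0.152 in OCsEoS, and Retnla was called in neither. Of its relatives, Retnlb was at 0 in all libraries. Retnlg, also expressed by neutrophils, averaged 11.7 (OCsCtr), 15.9 (OCsEo) and 8.22 CPM (OCsEoS), not called (adjusted p = 0.179 and 0.11 against OCsCtr). Every OCsEo library of Retnlg (10.6 to 19.4 CPM) lay above every OCsEoS library (5.19 to 10.2 CPM), as for 3.06% of all genes. The log2 fold change of Retnlg in OCsEoS vs OCsEo was -0.96 (adjusted p = 0.0565), not called.

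Chil3 (ENSMUSG00000040809, chromosome 3, 106147554 to 106167564, minus strand) encodes the chitinase-like protein Ym1, which is also made by neutrophil precursors. Values were 13.4, 11.6, 10.9 and 12.6 CPM in OCsCtr, 14.01, 17.1, 16.4 and 16.5 CPM in OCsEo, and 18.9, 14.3, 10.2 and 10.4 CPM in OCsEoS. The OCsEo libraries were all above OCsCtr, as for 10.5% of all genes, and the OCsEoS libraries spread from under to above both. The log2 fold change of 0.40 in OCsEo (SE 0.16, adjusted p = 0.101) did not pass the test, nor did that of 0.15 in OCsEoS (SE 0.16, adjusted p = 0.581). Chil4, a near copy 33925 bases away, was at 0 in all libraries. Summed neutrophil markers (9 genes) were at 331 to 469 CPM in OCsCtr, 479 to 620 CPM in OCsEo and 380 to 434 CPM in OCsEoS. Most of it came from S100a8 and S100a9 (141 and 203 CPM on average in OCsEo). In OCsEo 8 of the 9 had fitted changes above 0 and 2 were called higher, against 3.27% of all genes, while Cxcr2 was at -0.66. Sums and Chil3 were both highest in OCsEo by group mean. The highest Chil3 library, OCsEoS replicate 1, had a sum of 434 CPM, the highest of the OCsEoS group. The part of these genes in the Chil3 values was not tested.

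Cish (ENSMUSG00000032578, chromosome 9, 107296026 to 107302784, plus strand) encodes a feedback inhibitor of cytokine receptors that is best known downstream of STAT5. Counts were 1, 24, 20 and 5 in OCsCtr, 30, 43, 61 and 29 in OCsEo, and 4, 17, 18 and 0 in OCsEoS. OCsEo lay above every library of the other groups, at 0.896 to 1.56 CPM against at most 0.712 CPM, a separation seen in the same direction for 10.5% of all genes against OCsCtr and for 3.06% against OCsEoS. The log2 fold change was 1.61 in OCsEo (SE 0.85, adjusted p = 0.214) and -0.35 in OCsEoS (SE 0.87, adjusted p = 0.829), and OCsEoS vs OCsEo gave -1.96 (SE 0.86, adjusted p = 0.405), so none was called. The spread within OCsCtr, from 1 to 24 counts, was wide. Exact two-sided permutation of mean CPM gave p = 0.0286 for OCsEo vs OCsCtr, the smallest possible, before any adjustment. This value follows from the lack of overlap and adds nothing to it.

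Pdcd1lg2 (ENSMUSG00000016498, chromosome 19, 29410919 to 29471157, plus strand) encodes PD-L2, a ligand of the inhibitory receptor PD-1. It had 11, 0, 9 and 0 counts in OCsCtr, 9, 18, 11 and 0 in OCsEo, and 5, 9, 12 and 9 in OCsEoS. The groups overlapped, and exact two-sided permutation gave p = 0.486 and 0.4 against OCsCtr. The antisense gene A930007I19Rik that overlaps it held more counts, 167 against 93 over the 12 libraries, so that even these few reads are of uncertain origin. Cd274, the gene for the related ligand PD-L1, was at 7.03, 6.24 and 6.98 CPM in OCsCtr, OCsEo and OCsEoS and was not called.

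Egr2 (ENSMUSG00000037868, chromosome 10, 67535475 to 67542188, plus strand) encodes a zinc finger factor induced early by IL-4 in macrophages. Its values were 2.84, 3.71, 4.30 and 4.48 CPM in OCsCtr, 5.56, 4.07, 3.51 and 5.37 CPM in OCsEo, and 4.31, 5.84, 3.83 and 4.40 CPM in OCsEoS. The groups overlapped throughout. The log2 fold changes of 0.27 (95% interval -0.19 to 0.73, adjusted p = 0.471) and 0.26 (95% interval -0.20 to 0.72, adjusted p = 0.452) were nearly equal and their intervals allow a change past 0.5. Of its family and partners, Egr1, Egr3, Nab1 and Nab2, 0 of 4 was called in either comparison, against 5.88% and 7.73% of all genes. Their log2 fold changes were -0.45 to 0.22 in OCsEo and -0.61 to 0.19 in OCsEoS.

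**Figure D2:**
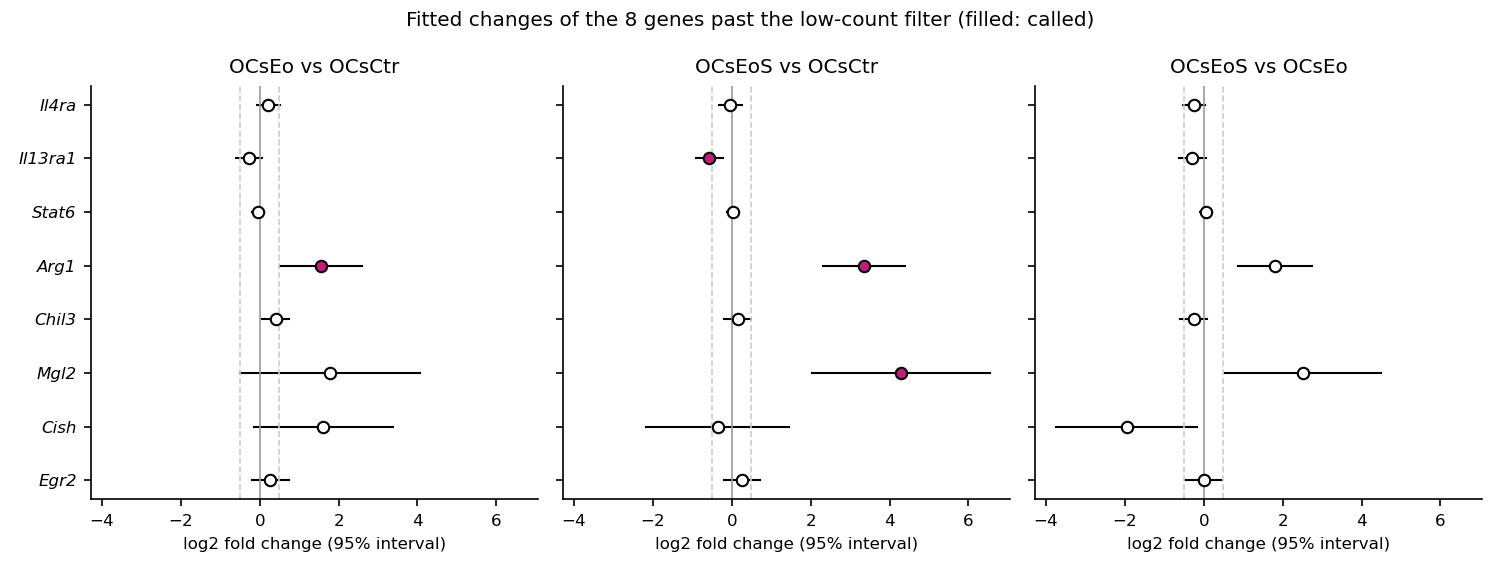
Fitted log2 fold changes (horizontal axis) of the 8 genes past the filter in the 3 comparisons, with 95% intervals from edgeR (bars), filled where called and with dashed lines at the threshold of 0.5. Arg1 is filled in the first and second panels, Mgl2 and Il13ra1 in the second, and no gene in the third.

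The other genes of the pathway were taken from lists of known members. Of 13 other receptor and signal genes 11 passed the filter, with median log2 fold changes of -0.14 in OCsEo and -0.19 in OCsEoS, beside medians of -0.0072 and -0.0055 over all genes tested. Socs1, a feedback inhibitor of Janus kinases, was the only one called in OCsEo, where 5.88% of all genes were called. It gave 2.53 to 3.33 CPM in OCsCtr, 4.26 to 4.84 CPM in OCsEo and 2.88 to 6.35 CPM in OCsEoS, and rose by a log2 fold change of 0.69 in OCsEo (SE 0.23, adjusted p = 0.0429) and 0.71 in OCsEoS (SE 0.23, adjusted p = 0.0305). Jak3, the kinase on the common gamma chain, fell in OCsEoS by 0.64 on the log2 scale (SE 0.19, adjusted p = 0.0189). So 1 of the 11 was called higher and 1 lower in OCsEoS, against 3.63% and 4.11% of all genes. Il2rg, the common gamma chain, averaged 37.9 ± 2.15 (OCsCtr), 47.1 ± 4.90 (OCsEo) and 43.6 ± 3.23 CPM (OCsEoS, SD, n = 4 each), with an adjusted p of 0.0179 in OCsEo at a log2 fold change of 0.31, under the threshold. Tyk2 had an adjusted p of 0.00393 in OCsEoS at a log2 fold change of -0.36, also short of the threshold. Il13ra2, the decoy receptor, was under the filter, with at most 7 counts in a library.

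Among 22 other IL-4 response genes, 19 passed the filter and their medians were -0.09 and -0.07. In OCsEo 0 was called higher and 1 lower, against 5.88% of all genes called either way. In OCsEoS 1 was called higher and 1 lower, against 3.63% and 4.11% of all genes. Mrc1, the mannose receptor, gave 7.15, 10.8, 11.02 and 17.6 CPM in OCsCtr in order of size and 14.5, 17.2, 20.3 and 29.0 CPM in OCsEoS, and rose by 0.80 (SE 0.24, adjusted p = 0.0188) although the ranges overlap. Ppargc1b, a coactivator of mitochondrial genes and also known from osteoclasts, fell by 0.63 in OCsEo (adjusted p = 0.00147) and by 0.57 in OCsEoS (adjusted p = 0.00218) on the log2 scale. Some genes passed the adjusted p but were short of 0.5. Upward, Pparg had adjusted p-values of 0.0231 and 0.0277 at log2 fold changes of 0.49 and 0.45, and Myc 0.0272 at 0.36 in OCsEo. Downward, Tfec had 0.00153 and 0.00207 at -0.41 and -0.38, and Tgm2 0.0314 at -0.31 in OCsEoS. Ccl17, a chemokine known to follow IL-4, was at 0 in all 12 libraries, and Ccl22, Ccl24, Irf4, Klf4, Kdm6b and Tgm2 were not called.

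Arginine metabolism was listed for Arg1. Of 7 genes 6 passed the filter, and 0 was called in OCsEo, against 5.88% of all genes. In OCsEoS 2 were called higher and 0 lower, against 3.63% and 4.11%. Slc7a2, a carrier that takes up arginine, gave 4.60 to 7.03 CPM in OCsCtr and 7.18 to 12.4 CPM in OCsEoS, with a log2 fold change of 0.76 (SE 0.20, adjusted p = 0.00761). Ass1, which makes argininosuccinate on the way back to arginine, gave 28.2 to 46.6 CPM in OCsCtr and 46.4 to 81.1 CPM in OCsEoS, with a log2 fold change of 0.61 (SE 0.17, adjusted p = 0.0129). In OCsEo the values were 0.43 and 0.31 (adjusted p = 0.142 and 0.241). Arg2, the mitochondrial arginase, was at 4.61, 4.67 and 4.67 CPM in OCsCtr, OCsEo and OCsEoS. Nos2, which uses the same substrate, was under the filter with at most 23 counts in a library.

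**Figure D3:**
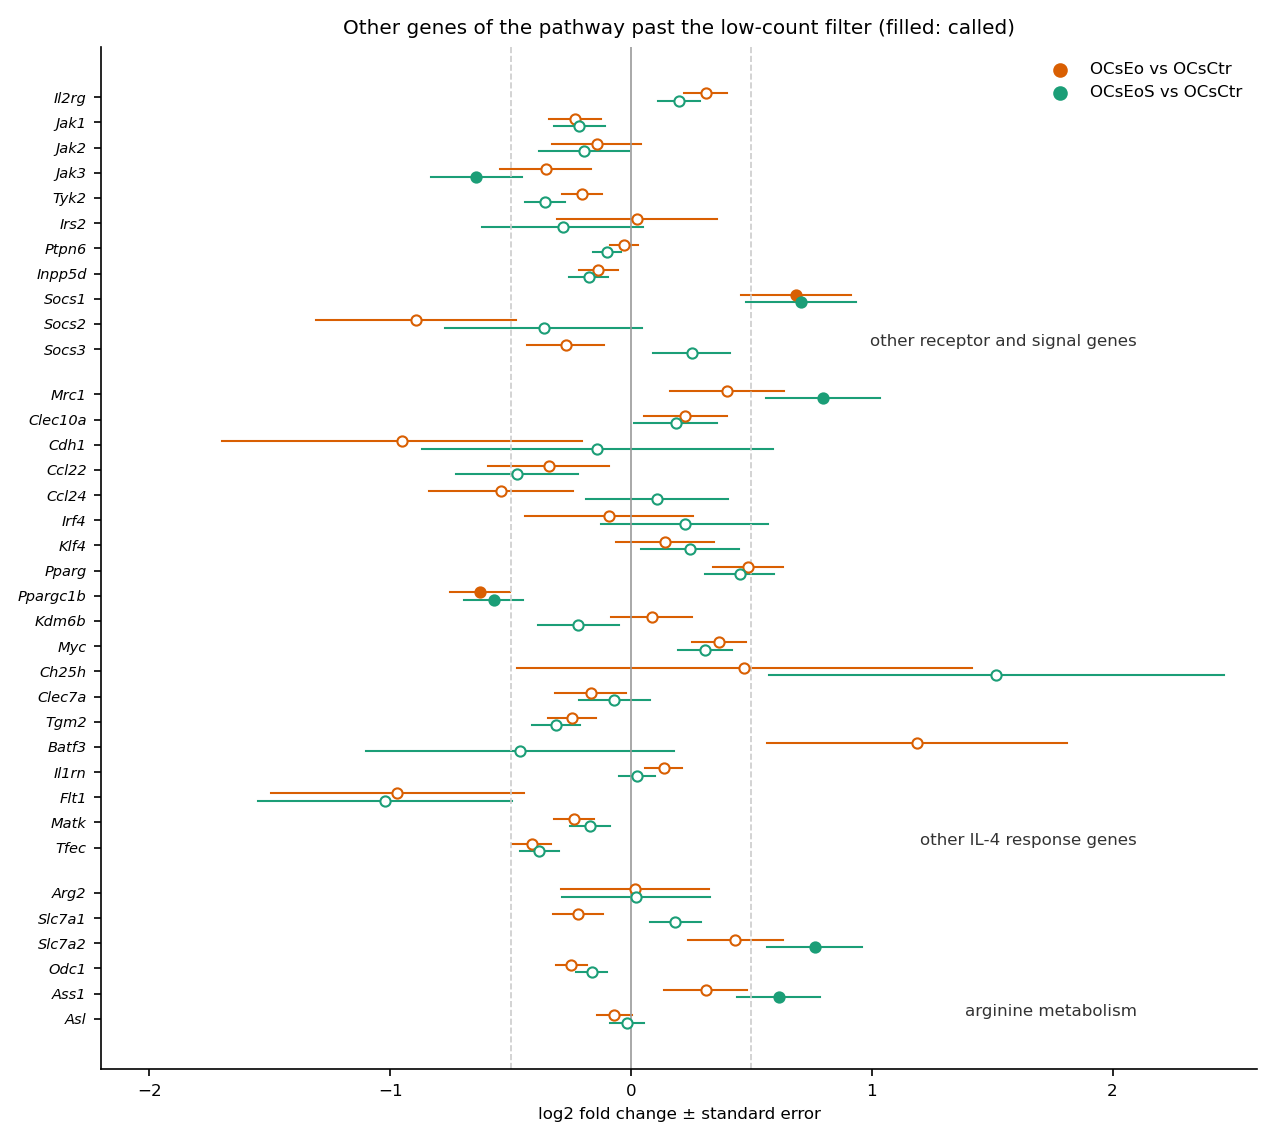
Log2 fold change ± SE (horizontal axis) against OCsCtr of the other receptor and signal genes, the other IL-4 response genes and the arginine metabolism genes past the filter, in OCsEo (orange) and OCsEoS (green), filled where called. Socs1 is filled on the right and Ppargc1b on the left in both comparisons, Mrc1, Slc7a2 and Ass1 on the right and Jak3 on the left in OCsEoS, and the remaining genes are open.

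Markers of other cells were read beside these values. In OCsEo, the eosinophil genes Alox15 (6.23 to 16.7 CPM, against 0.104 to 0.653 CPM in OCsCtr) and Siglecf (2.52 to 3.28 CPM, against 0.218 to 0.653 CPM) rose, Alox15 by a log2 fold change of 5.17 (adjusted p = 8.42e-07) and Siglecf by one of 2.76 (adjusted p = 5.62e-04). Among the 5 of 10 eosinophil genes tested, these were the 2 called in OCsEo, both higher, against 3.27% of all genes. Prg2, a granule protein gene, was at 3.85 to 7.83 CPM in OCsCtr and 4.21 to 7.25 CPM in OCsEo (log2 fold change -0.01, adjusted p = 0.994), so the unstimulated cultures held it too. It was at 0 to 1.79 CPM in OCsEoS and fell there by 2.74 on the log2 scale against OCsCtr (adjusted p = 0.00136), and by 2.73 against OCsEo (adjusted p = 0.0261). Ear2 (-0.20, adjusted p = 0.938) and Ccr3 (-0.29, adjusted p = 0.0164) were not called in OCsEo. In OCsEoS neither Alox15 nor Siglecf was called against OCsCtr, and Epx, Prg3, Ear1 and Ear6 were at 0 in all 4 libraries. The 10 genes of the eosinophil list summed to 57.1 to 73.7 CPM in OCsCtr, 60.1 to 82.1 CPM in OCsEo and 49.3 to 55.4 CPM in OCsEoS, most of it from Ccr3, which OCsCtr also expressed at 59.5 CPM. Without Ccr3 the sums were 5.30 to 10.7, 14.4 to 29.0 and 1.63 to 4.83 CPM. The part of eosinophil RNA in the values of the 10 genes, Il4 and Il13 was not tested.

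Osteoclast sums (9 genes) were 26825 to 32799 CPM in OCsCtr, 17067 to 22019 CPM in OCsEo and 13997 to 20854 CPM in OCsEoS. Each stimulated group had 7 of the 9 called lower. Of all 13681 genes tested, 357 had this call against OCsCtr for OCsEo, and 562 (4.11%) for OCsEoS. The monocyte and macrophage list (8 genes) summed to 2207 to 2538, 1964 to 2310 and 1746 to 2133 CPM, most of it from Csf1r (1237, 909 and 835 CPM on average) and Cd68 (754, 737 and 599 CPM). In OCsEoS 5 of the 8 genes had fitted changes above 0, and the median log2 fold change was 0.21. Adgre1, which encodes F4/80, rose there by 0.56 (adjusted p = 0.000297), and Csf1r fell by 0.57 on the log2 scale (adjusted p = 3.33e-05). So 1 of 8 was called higher and 1 lower in OCsEoS, against 3.63% and 4.11% of all genes. In OCsEo 0 of 8 was called, against 5.88%. In the dendritic cell list (7 genes), which matters for Mgl2, sums of 7.36 to 13.1, 6.10 to 11.7 and 5.89 to 14.2 CPM overlapped. Of the 7, 1 was called in OCsEo, against 5.88% of all genes, and 0 in OCsEoS, against 7.73%. The called gene was Zbtb46, a dendritic cell transcription factor, which fell in OCsEo by 1.77 on the log2 scale (adjusted p = 0.0128). In each stimulated group 4 of the 7 had fitted changes above 0. Basophil and mast cell genes (5) summed to 4.69 to 6.86, 4.06 to 5.69 and 3.41 to 4.34 CPM with Ms4a2 at 0 in OCsEoS, and lymphocyte genes (6) to 2.97 to 9.95, 6.41 to 9.97 and 6.51 to 11.6 CPM with Ncr1 at 0 in every group. The part of the lower osteoclast marker RNA, and of the other lists, in the changes of Arg1, Mgl2 and Il13ra1 was not tested.

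**Figure D4:**
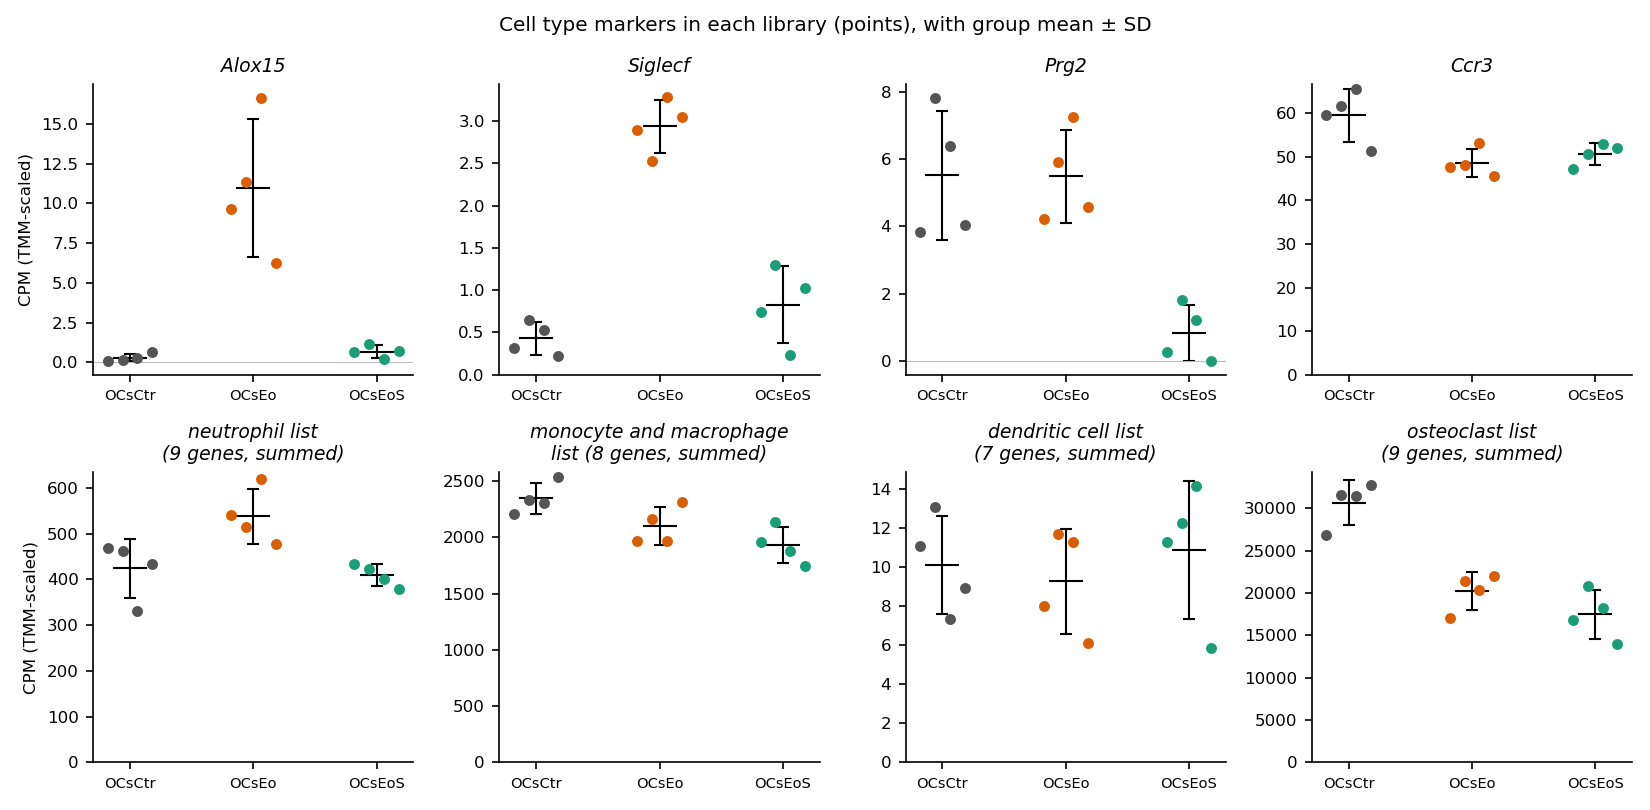
CPM (vertical axis, TMM-scaled, linear, a scale of its own in each panel) of 4 eosinophil genes and of summed marker lists in each library, with points for libraries, horizontal bars for means and error bars for SD (n = 4). Alox15 and Siglecf are highest in the 4 OCsEo libraries, Prg2 overlaps between OCsCtr and OCsEo and is lowest in OCsEoS, Ccr3 lies between 45.6 and 65.6 CPM in all 12 libraries, the osteoclast sums of both stimulated groups lie under all OCsCtr sums, and the dendritic cell sums overlap.

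The genes whose pattern over the 12 libraries was most like that of the called members were found by the root mean square difference in log2 CPM centered per gene, among the 10630 genes whose mean log2 CPM reached 1. For Arg1 these were Folr2 (0.743), C1qc (0.825) and Cbr2 (0.861), where the spread of Arg1 about its own mean was 1.43 on the same scale. Folr2, a folate receptor of macrophages, was at 28.5, 51.6 and 94.1 CPM in OCsCtr, OCsEo and OCsEoS, the same order of groups as Arg1. For Mgl2 they were Ctla2b (1.24), Tmem156 (1.28) and Folr2 (1.30) against a spread of 1.71, so that even the nearest genes followed it loosely. For Il13ra1 they were Pfkm (0.123), Cdadc1 (0.130) and Pmaip1 (0.132) against a spread of 0.352. These likenesses describe 12 libraries that share groups and depth.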

How the data were processed

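Bulk RNA-seq. counts per gene were used as the authors deposited them, raw and unnormalized. Per the study's methods and processing notes, reads were aligned with Hisat2 2.0.5 to GRCm38/mm10 and counted with featureCounts. The annotation release and the strand setting are not given in the sources used here. Coordinates are those of the count table, and overlapping genes came from GENCODE vM21, which held 99.1% of the gene identifiers. The labels give the cytokine doses in another unit than the study's methods, so no dose is printed.

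In R 4.3.3, edgeR 4.0.16 removed low counts (filterByExpr, minimum count 10), scaled by TMM and fitted the 12 libraries with 3 groups (quasi-likelihood F-test). Each adjusted p is the Benjamini-Hochberg value over all genes tested unless DESeq2 (1.42.0) is named, and SE belong to the fitted log2 fold change. Members below the filter were compared by an exact two-sided permutation test over 35 splits of 8 libraries and by a fit without the filter. The permutation p is also given for Cish, which passed the filter. TPM were computed here from counts and the gene lengths of the table. Replicates differed by more than sampling noise (chi-square per degree of freedom 9.79 to 34.4 over 18 pairs). On simulated data for OCsEo vs OCsCtr (13681 genes), edgeR recovered 81 of 100 genes changed by 2 on the log2 scale and 68 of 100 changed by 1, with 3 false calls. DESeq2 recovered 86 and 72 of these, with 12 false calls. The changed genes were drawn at random from those past the filter, so the rates are not those of genes near the floor. The genes named are the 10 members, genes of the lists, and the 3 genes most like each called member. The members and lists were chosen with earlier results of these data known. Alternatives were DESeq2 and edgeR on 12 or 8 libraries, other scalings and filters, other fold thresholds, a replicate block, thinned counts, and each library left out in turn.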

Additional observations from a re-analysis of the deposited data

Results flagged for a closer look

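In 4 of the 30 groups examined (10 genes in 3 groups of 4), 1 library stood apart from the others by more than Dixon's 95% limit, the gap to its nearest neighbor divided by the range of the group. Chance gives about 1 in 20 groups where values are normally distributed. Several groups here hold counts near 0, and Retnla in OCsCtr, at 0 throughout, has no ratio. The 4 are therefore not read against that share. The ratio was 0.927 for Arg1 in OCsEo, where replicate 4 had 2.22 CPM and the others 0.627 to 0.744 CPM. It was 0.886 for Il13ra1 in OCsEoS, where replicate 4 had 10.8 CPM and the others 17.5 to 18.4 CPM. For Stat6 in OCsEoS it was 0.859, with replicate 3 at 93.0 CPM and the others at 101 to 103 CPM. For Retnla in OCsEoS it was 1, with 11 counts in replicate 3 and 0 counts in the others. The calls of Arg1 in OCsEo and of Il13ra1 in OCsEoS are lost without these libraries, with adjusted p-values of 0.195 and 0.0516 by edgeR's quasi-likelihood test.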

How the results depend on the processing

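Of 599 values of single members under the alternatives, 573 kept their direction and their side of the threshold, 6 lost the call, 4 gained it and 16 changed sign, none of them called. With 1 library left out, the log2 fold changes that crossed 0 ranged in OCsEoS vs OCsEo from -0.141 to 0.0859 for Egr2 (0.00014 with at least 10 counts in every library), -0.0132 to 0.0970 for Stat6 and -0.375 to 0.502 for Pdcd1lg2. In OCsEoS vs OCsCtr they ranged from -0.802 to 0.168 for Cish, -0.117 to 0.0533 for Il4ra and -0.0490 to 0.264 for Chil3, and in OCsEo vs OCsCtr from -0.0738 to 0.0354 for Stat6.

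Genes called in OCsEoS vs OCsEo, 52 as reported, were 81 with DESeq2 on 12 libraries, 100 without the filter, 81 without a fold threshold, 21 at a threshold of 1 and 17 to 62 with 1 library left out. Without a fold threshold 2382 genes were called in OCsEo and 3151 in OCsEoS against OCsCtr, and at a threshold of 1 it was 136 and 160. Leaving out 1 library gave 664 to 980 and 849 to 1345. Members called were 0 to 1 in OCsEo, 2 to 3 in OCsEoS and 0 to 1 in OCsEoS vs OCsEo with 1 library left out. The edgeR fit of 8 libraries called 0 in OCsEo, and DESeq2 on 12 or 8 libraries and the fit without the filter called 1, Arg1, in OCsEoS vs OCsEo. The cause was not tested.

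Whether replicate numbers pair the libraries was not settled, and the main fit left them unpaired. Same-numbered libraries correlated at -0.0435 to 0.0944 in their deviations from group means over 12 pairs. Of these, 0 were above the 0.1 set for pairing, but 9 of 12 correlated best with their own number, a hint from the data only. With a replicate block 854, 1108 and 67 genes were called, the member counts stayed at 1, 3 and 0, and no member's call changed, Arg1 being at 1.53 (adjusted p = 0.0351) in OCsEo vs OCsCtr and 3.44 against the same controls in OCsEoS (adjusted p = 6.36e-05). DESeq2 gave no adjusted p for Mgl2 on 12 libraries in OCsEoS or for Arg1 on 8 libraries in OCsEo, and requiring 10 counts in every library removed Arg1, Mgl2, Cish, Retnla and Pdcd1lg2, so these have no value there. Counts of at most 61 per library for Mgl2, Retnla, Cish and Pdcd1lg2 limit what this depth can show.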
